A study of Mus musculus with 48 samples.

Results

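The synuclein family was followed here through 3 genes, Sncb, Sncg and Sncaip, which encode β-synuclein, γ-synuclein and synphilin-1. They were taken by symbol from the 19601 genes of the batch-corrected tables, and no measured value entered the choice. The study asked how breathing 11% O2 alters the response of the substantia nigra (SN) to aggregates of α-synuclein. Male C57Bl/6J mice received either preformed fibrils (PFF) of α-synuclein, which seed aggregation of the mouse's own protein, or the monomeric protein, which served as the control, in the right striatum at the age of 121 days. They then lived in chambers at 21% O2 (normoxia) or 11% O2 (hypoxia), and their SN was taken 90 to 98 days past the injection. There was no uninjected group, so every mouse carries an injection of α-synuclein protein in 1 of these 2 forms. Of 48 mice with poly(A) RNA-seq, 12 in each group, the authors kept 42: 11 with monomer at 21% O2, 12 with PFF at 21% O2, 9 with monomer at 11% O2 and 10 with PFF at 11% O2. Each mouse gave 1 library, and the whole SN was used, so the libraries hold dopaminergic (DA) neurons of the pars compacta together with GABAergic neurons, glia and vessels.

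The synucleins are small proteins of the presynaptic terminal that bind the membranes of synaptic vesicles. β-Synuclein lacks part of the central stretch through which α-synuclein aggregates and is found widely in neurons of the brain. γ-Synuclein is most abundant in peripheral and motor neurons and in some monoaminergic cells, DA neurons of the midbrain among them. Synphilin-1 is not a synuclein by sequence; it binds α-synuclein, is a substrate of the ubiquitin ligases SIAH1 and SIAH2, and is found in Lewy bodies. Tyrosine hydroxylase (Th), the rate-limiting enzyme of dopamine synthesis, served as the measure of DA neurons in each dissection.

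Positions are those of GRCm38 (mm10). Sncb is on the minus strand of chromosome 13 between bases 54758860 and 54766595, with up to 6 exons in a transcript of GENCODE vM21. Sncg is on the minus strand of chromosome 14 between 34370274 and 34374789, with 5 exons in its only transcript. No other gene of that annotation overlaps a member, on either strand. Matching to RefSeq promoters of GRCm38.p6, which run from 250 bases before to 50 after the start, gave Sncb and Sncg. The stretches below are the bases that lie upstream of the gene in both annotations, 250 for Sncb (chr13:54766596-54766845) and 130 for Sncg (chr14:34374790-34374919), on the minus strand and read 5′ to 3′; they are shown because these 2 synucleins differed in which genes they followed across mice. Capitals mark matches to the motifs searched.
Sncb: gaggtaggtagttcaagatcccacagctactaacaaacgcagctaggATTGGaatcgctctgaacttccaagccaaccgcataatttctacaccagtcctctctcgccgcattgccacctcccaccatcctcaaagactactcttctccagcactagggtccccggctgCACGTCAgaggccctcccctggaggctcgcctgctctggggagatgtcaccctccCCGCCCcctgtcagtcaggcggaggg
Sncg: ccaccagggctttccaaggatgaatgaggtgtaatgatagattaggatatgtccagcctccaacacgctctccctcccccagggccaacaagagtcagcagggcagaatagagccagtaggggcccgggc
Over the whole window of 300 bases, read on both strands, that of Sncb held the GC box GGGCGG at 2 places and that of Sncg at 1 place, which lies past the end of the stretch shown; 35.7% of 32851 promoters hold it. The CCAAT box CCAAT, in 37.4% of promoters, and the core of the cAMP response element TGACGT, in 7.51%, were each found once in the window of Sncb and not in that of Sncg. The letters ACGTG of the hypoxia response element, in 19.6% of promoters, overlap that cAMP match in Sncb. The NR4A element AAAGGTCA, in 1.51% of promoters, the E-box CACGTG, in 7.15%, and the TATA box TATAAA, in 13.6%, were in neither window. These are matches of letters only.

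The libraries kept held 12902996 to 17120921 counts on genes. Batches are the dates of harvest: batch 1 holds all 4 groups, batch 2 lacks mice with monomer at 11% O2 and batch 3 lacks mice with monomer at 21% O2. Nothing in the labels shows that 2 libraries share an animal, and no pair of libraries within a group agreed within counting noise, the chi-square per degree of freedom being at least 2.47 in 264 pairs. Markers of the dissection were present in each library, the summed level of 12 genes of DA neurons running from 1194 to 5906 TPM (transcript abundance scaled for gene length and library size).

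All 3 genes were expressed in every mouse and in a fixed order. Sncb averaged 579 ± 49.7 TPM (SD, n = 42), above 99.1% of genes; Sncg averaged 290 ± 81.6 TPM, above 97.4%; Sncaip averaged 9.23 ± 1.19 TPM, above 45.7%. Sncb was above Sncg in 42 of 42 mice, by a median of 2.02-fold in TPM, and Sncg was above Sncaip in 42 of 42, by a median of 31.2-fold. The spread ran in another order. The coefficient of variation over all mice was 8.58% for Sncb, 28.2% for Sncg and 12.9% for Sncaip, against 44.7% for Th. Counting error alone, from the 3482 to 5710 counts per mouse on Sncb, 462 to 1548 on Sncg and 113 to 239 on Sncaip, averages 1.46%, 3.36% and 7.98%, so a larger share of the spread of Sncaip than of the others is within reach of counting noise. Within groups, the standard deviation of log2(TPM + 1) of Sncg was larger than that of 96.3% of the genes with a mean of at least 1 TPM, whereas that of Sncb was larger than 40.4% and that of Sncaip larger than 66.3%.

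**Figure D1:**
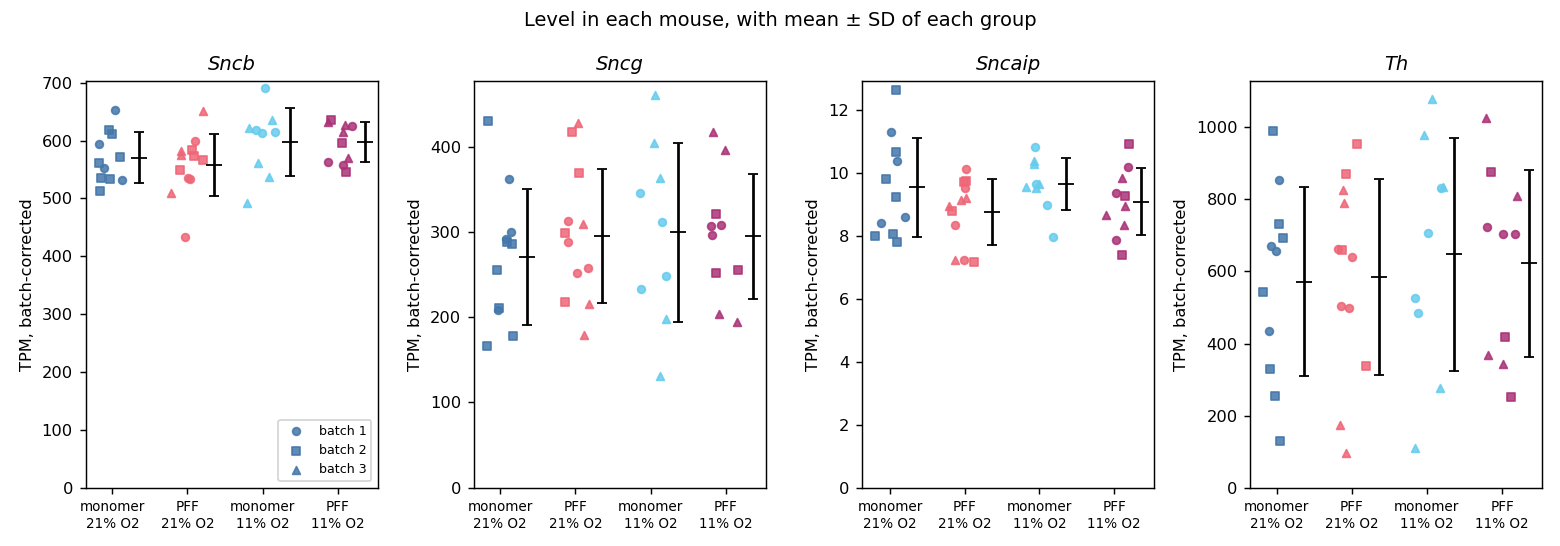
Level of Sncb, Sncg, Sncaip and Th in each of 42 mice (points, shaped by batch) on the y axis in batch-corrected TPM, by group on the x axis, with the mean ± SD of each group in black. The 4 groups overlap in every panel, and the points of Sncg and Th are spread far more widely around their means than those of Sncb.

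Whether fibrils or low oxygen changed the family was asked by 5 comparisons on the counts: PFF against monomer at each O2 level, 11% against 21% O2 after each injection, and the interaction of both. Calls required both an adjusted p below 0.05 (Benjamini–Hochberg, over all genes tested) and a log2 fold change of more than 0.25 in either direction. All 3 members passed the filter on low counts, which kept 14839 genes, and none was called in any comparison. In the same fits, 3.7% of genes were called for PFF against monomer at 21% O2, 0% at 11% O2, 7.23% for 11% against 21% O2 in monomer mice, 0.58% in PFF mice and 2.14% for the interaction. The count of 0 at 11% O2 is from edgeR, where 581 genes, 3.92%, had an unadjusted p under 0.05; DESeq2 called 1 gene.

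Sncb, the most abundant, was the most tightly bounded. Its level ran from 513 to 652 TPM with a median of 562 in monomer mice at 21% O2 and from 434 to 652 with a median of 570 in PFF mice at 21% O2. At 11% O2 it ran from 492.6 to 690 with a median of 614 after monomer and from 546 to 635 with a median of 605 after PFF. The groups overlapped throughout, and the lowest mouse of all was a PFF mouse at 21% O2. Mean levels were 571 ± 43.6 (SD, n = 11), 558 ± 53.1 (n = 12), 598 ± 58.7 (n = 9) and 597 ± 34.6 (n = 10) TPM in that order of groups. PFF changed the log2 level by −0.01 (SE 0.052, 95% confidence interval −0.12 to 0.09, adjusted p = 0.915) at 21% O2 and by 0.01 (SE 0.057, interval −0.10 to 0.13, adjusted p = 1.0) at 11% O2. The difference of 11% from 21% O2 was 0.07 (SE 0.056, interval −0.04 to 0.18, adjusted p = 0.427) in monomer mice. In PFF mice it was 0.10 (SE 0.053, interval −0.01 to 0.21), with an unadjusted p of 0.0733 and an adjusted p of 0.518 in edgeR's quasi-likelihood test. That last difference was positive in each of the 3 batches on its own, at 0.13, 0.08 and 0.06 on the log2 scale, and passed the threshold in none. The interaction was 0.03 (SE 0.077, interval −0.13 to 0.18).

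Sncg had a larger error, from its wider spread between mice. It ran from 165.6 to 430 TPM with a median of 286 in monomer mice and from 179.4 to 428 with a median of 293 in PFF mice at 21% O2. At 11% O2 it ran from 132 to 460 with a median of 312 after monomer and from 194 to 417 with a median of 301 after PFF. No group stood apart: both the lowest and the highest value of all came from monomer mice at 11% O2. The group means were 270.5 ± 79.4, 295 ± 78.4, 299 ± 105 and 295 ± 73.0 TPM, a range smaller than any of their SDs. The log2 fold change for PFF was 0.15 (SE 0.167, interval −0.19 to 0.48, adjusted p = 0.648) at 21% O2 and −0.01 (SE 0.183, interval −0.38 to 0.36) at 11% O2. For 11% against 21% O2 it was 0.15 (SE 0.179, interval −0.21 to 0.51, adjusted p = 0.622) in monomer mice and −0.00082 (SE 0.171, interval −0.34 to 0.34) in PFF mice. Within batches on the uncorrected counts, the difference for PFF at 21% O2 was −0.13 in batch 1 and 0.30 in batch 2, so even its sign was not fixed.

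Sncaip, the least abundant, lies on the plus strand of chromosome 18 between bases 52767709 and 52915935, with 11 transcripts and up to 12 exons in vM21. It had its lowest mean in PFF mice at both O2 levels. In monomer mice it ran from 7.81 to 12.6 TPM with a median of 9.23 at 21% O2 and from 7.97 to 10.8 with a median of 9.63 at 11% O2. In PFF mice it ran from 7.16 to 10.1 with a median of 9.04 at 21% O2 and from 7.39 to 10.9 with a median of 9.10 at 11% O2. The ranges of PFF and monomer mice overlapped over most of their length. Means were 9.53 ± 1.57 and 8.76 ± 1.05 TPM for monomer and PFF at 21% O2, and 9.64 ± 0.836 and 9.08 ± 1.07 at 11% O2. The log2 fold change for PFF was −0.10 (SE 0.074, interval −0.25 to 0.05, adjusted p = 0.426) at 21% O2 and −0.07 (SE 0.082, interval −0.24 to 0.09, adjusted p = 1.0) at 11% O2. It was below 0 in both batches that allow the comparison at each O2 level, between −0.14 and −0.03, without passing the threshold. For 11% against 21% O2 it was 0.02 (SE 0.080, interval −0.14 to 0.18) in monomer mice and 0.06 (SE 0.077, interval −0.10 to 0.21) in PFF mice.

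**Figure D2:**
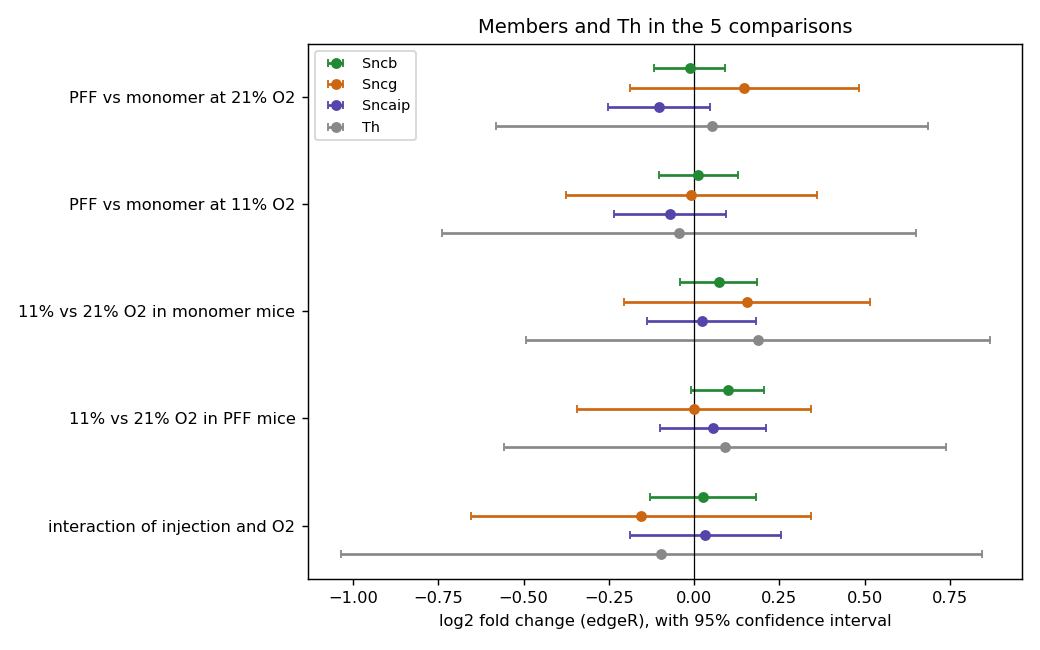
Log2 fold change (x axis, point) with its 95% confidence interval (line) of Sncb, Sncg, Sncaip and Th in the 5 comparisons (y axis), from edgeR over 42 mice. Every interval includes 0; those of Sncb are the narrowest and those of Th the widest.

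Th, against which the members are set below, was not called in any comparison either, with log2 fold changes between −0.10 and 0.19 and standard errors of 0.31 to 0.47. Its level ran from 96.1 to 1079 TPM over the 42 mice, 7.59-fold within monomer mice at 21% O2, 9.93-fold within PFF mice at 21% O2, 9.87-fold within monomer mice at 11% O2 and 4.07-fold within PFF mice at 11% O2. In bulk tissue, fewer DA neurons in a sample and less RNA per neuron cannot be told apart. Before batch correction Th ran from 250.2 to 1153 TPM in monomer mice and from 185.2 to 885 TPM in PFF mice at 21% O2. At 11% O2 it ran from 213.8 to 1014 TPM after monomer and from 349 to 866 TPM after PFF. In each group the lowest value was lower after correction, and the range in folds was wider. How much of the range comes from the dissection was not tested.

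Within groups, Sncg went up and down with Th. In monomer mice at 21% O2, replicate 6 was lowest in both, at 131 TPM for Th and 165.6 TPM for Sncg. Replicate 11 was highest in both, at 991 and 430 TPM (before batch correction replicate 4 was, at 1153 and 437 TPM). In monomer mice at 11% O2, replicate 11 was lowest in both, at 109 and 132 TPM. Among PFF mice at 21% O2, replicate 12 had the lowest Th of all mice, 96.1 TPM, with 216 TPM of Sncg, the second lowest Sncg of its group. Pearson's r of log2(TPM + 1) between Sncg and Th was 0.908 (Spearman's rho 0.891, n = 11), 0.832 (0.937, n = 12), 0.971 (0.983, n = 9) and 0.831 (0.842, n = 10) for monomer and PFF at 21% O2 and monomer and PFF at 11% O2. The adjusted p of r, over the 18 relations computed, was 0.00018, 0.0003, 0.000124 and 0.0062 in two-sided permutation tests, the one for the 9 mice exact, and that of rho was at most 0.00832. Over all 42 mice with the group means removed, r was 0.886 and rho 0.941, each with p = 1e-05, the smallest that 100000 permutations can give (adjusted p 0.000124 and 0.00018). Without the 2 mice farthest from the median of Th, r was 0.8996. On the uncorrected TPM it was 0.988 in batch 1 (n = 15), 0.9498 in batch 2 (n = 14) and 0.9497 in batch 3 (n = 13), and 0.956 over the 42 mice with the means of group and batch removed, so the relation was there before batch correction and in each batch.

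On the batch-corrected TPM, the slope of Sncg on Th was well under 1. On the log2 scale Sncg changed by 0.42 (SE 0.036) for each unit of Th, between 0.32 (SE 0.067) in PFF mice at 21% O2 and 0.52 (SE 0.049) in monomer mice at 11% O2. Accordingly, the ratio of Sncg to Th was not constant on these values: its median was 0.471, its lowest 0.367 and its highest 2.25. Sncg exceeded Th in 5 of 42 mice after correction, but in uncorrected TPM it was below Th in every mouse. In replicate 12 of PFF mice at 21% O2, uncorrected Sncg was 179.4 and Th 185.2 TPM. Correction took that Th to 96.1 TPM. No slope or median ratio on uncorrected TPM is given. Adding Th as a covariate to the fit, a choice made after seeing this relation, narrowed the error of Sncg. For PFF at 21% O2 the log2 fold change was then 0.16, with an SE of 0.082 in place of 0.167 and an adjusted p of 0.21, and for the other comparisons the adjusted p was at least 0.58.

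Sncaip followed Th more loosely. Over all 42 mice with group means removed r was 0.509 (rho 0.557, adjusted p 0.00018 and 0.00036 in permutation tests), and 0.522 without the 2 mice farthest from the median of Th. By group, r was 0.795 (rho 0.927, adjusted p 0.00659 and 0.00036) in monomer mice at 21% O2, 0.536 (rho 0.448, adjusted p 0.134 and 0.295) in PFF mice at 21% O2, 0.152 (rho 0.30, adjusted p 0.767 and 0.561, exact) in monomer mice at 11% O2 and 0.410 (rho 0.394, adjusted p 0.426 and 0.398) in PFF mice at 11% O2. Of the 4 groups only monomer mice at 21% O2 passed the threshold in these data. On the uncorrected TPM of all 48 mice that group missed it (r = 0.638, adjusted p 0.0574 in a permutation test) and monomer mice at 11% O2 passed it (r = 0.667, adjusted p 0.0354 in a permutation test), so which group passed depended on the mice and values used, and whether the groups differ in this relation was not tested. In monomer mice at 11% O2, r was 0.741 without the 2 mice farthest from the median of Th. On uncorrected TPM, r was 0.576 in batch 1, 0.787 in batch 2 and 0.595 in batch 3. The slope was 0.09 (SE 0.026) log2 units of Sncaip per unit of Th.

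Sncb showed little relation to Th. Over 42 mice r was 0.106 (rho 0.186, adjusted p 0.721 and 0.398, permutation tests), with r of 0.339, 0.112, −0.090 and 0.126 in monomer and PFF mice at 21% O2 and monomer and PFF mice at 11% O2, none past the threshold (adjusted p at least 0.512). Without the 2 mice farthest from the median of Th, r was 0.237. On uncorrected TPM, r was 0.507 in batch 1, 0.165 in batch 2 and 0.174 in batch 3, so batch 1 stood above the others. The slope was 0.01 (SE 0.022). Replicate 12 of the PFF mice at 21% O2, lowest in Th, had 582 TPM of Sncb, above the mean of its group. Whether the correlations of the 3 members with Th differ from each other was not tested.

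**Figure D3:**
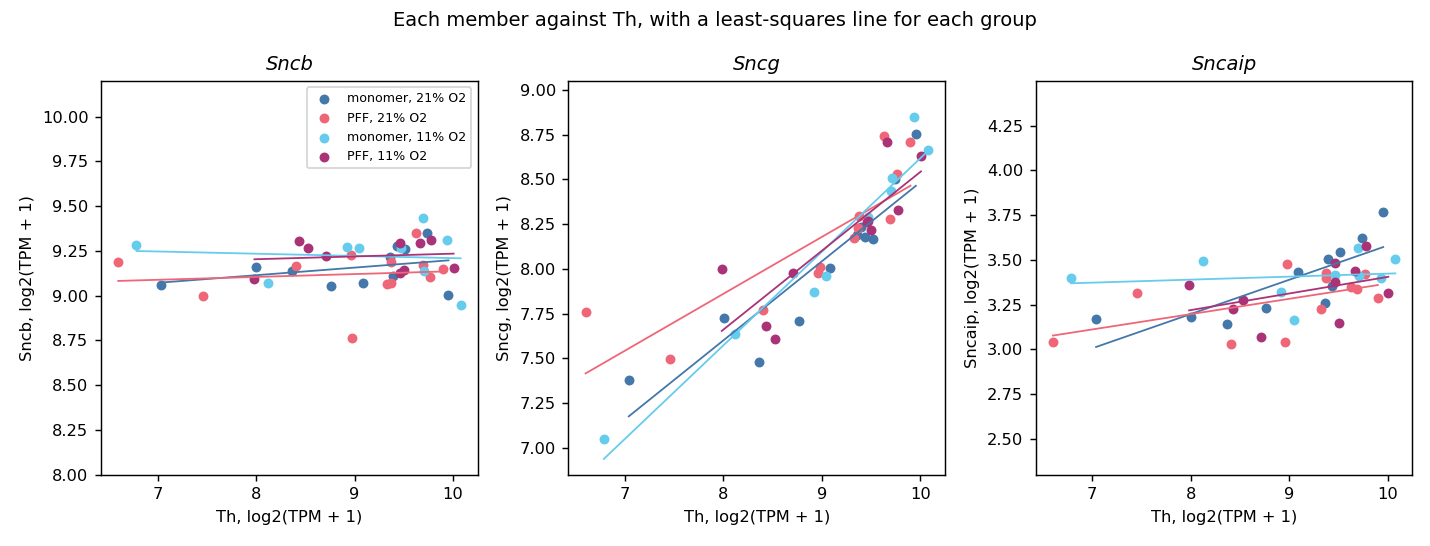
Each member on the y axis against Th on the x axis, both as log2(TPM + 1), 1 point per mouse, coloured by group, with a least-squares line for each of the 4 groups; the 3 y axes span the same number of log2 units. Points for Sncg climb along the lines in all groups, those for Sncaip climb weakly, and those for Sncb lie nearly flat.

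Among each other, Sncg and Sncaip went together (r = 0.538, rho 0.552, adjusted p 0.00018 and 0.000225 in permutation tests over 42 mice). Their r was 0.639 in batch 1, 0.838 in batch 2 and 0.416 in batch 3. Sncb went with neither, at r = 0.126 (adjusted p 0.663) with Sncg and −0.086 (adjusted p 0.763) with Sncaip. The number of counts on genes had r between −0.083 and 0.155 with the 3 members, given as a description.

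Set among all genes, the same values place the members apart. Of 14295 other genes tested with a mean of at least 1 TPM, the median r with Th was 0.00 and 95% lay below 0.545. Sncg had the 47th highest r, Sncaip the 881st and Sncb the 5257th, above 99.7%, 93.8% and 63.2% of these genes. These ranks describe genes that share libraries and are not independent.

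**Figure D4:**
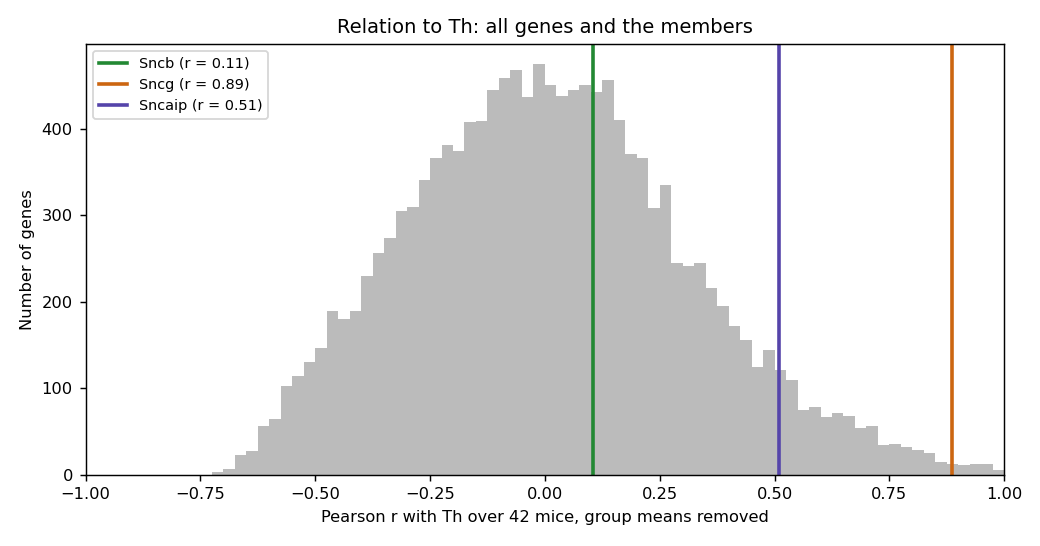
Number of genes (y axis) by their Pearson r with Th over 42 mice with group means removed (x axis), in grey for 14295 genes, with vertical lines at the r of Sncb, Sncg and Sncaip. The line of Sncg stands in the far right tail at 0.89, that of Sncaip at 0.51 on the right shoulder and that of Sncb at 0.11 within the bulk.

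The genes most like each member were named by the highest r with it over the 42 mice, group means removed. For Sncg these were Kcnn3, a small-conductance calcium-activated potassium channel (r = 0.955), Tll1, a metalloprotease (0.953), Ddc, the enzyme that turns L-DOPA into dopamine (0.943), and Nr4a2, a transcription factor of DA neurons (0.937), and each of them had an r of 0.919 to 0.963 with Th. For Sncb they were Sult4a1, a brain sulfotransferase (0.918), Eef1a2, the translation elongation factor of neurons and muscle (0.895), Tomm40, the pore of the mitochondrial outer membrane (0.848), Slc45a1, a glucose transporter (0.844), and Grina (0.842). Their r with Th was between 0.0925 and 0.226. For Sncaip the values were lower: Ttc12 (0.730), Cyth1 (0.706), Stox1 (0.701), Ptpn5, a striatum-enriched tyrosine phosphatase (0.695), and Cdh11, a cadherin (0.693), with r of 0.450 to 0.840 with Th. Sncg had an r above 0.8 with 241 genes, Sncb with 21 and Sncaip with 0 of 14295.

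Lists of related genes, given by their r as a description with no test, showed the same division. All 12 genes of the DA neuron list had a positive r with Sncg, from 0.754 for Aldh1a1, an aldehyde dehydrogenase of ventral DA neurons, to 0.943 for Ddc, with a median of 0.902. The dopamine transporter Slc6a3 stood at 0.901, the vesicular monoamine transporter Slc18a2 at 0.912, and Pitx3, a transcription factor of DA neurons, at 0.913. With Sncaip the 12 genes ran from 0.466 to 0.622, Aldh1a1 being the highest, and with Sncb from −0.136 for Aldh1a1 to 0.315 for En1. For Sncb the list of presynaptic release had the highest median of the 14 lists, 0.565, with 16 of 16 genes positive; by the r of a list's mean log2 level with Sncb, the pan-neuronal and neurofilament list stood above it, at 0.638 against 0.5997. Rab3a, the small GTPase of synaptic vesicles, reached 0.830 with Sncb, and Syp, a vesicle membrane protein, 0.770. The same list had a median of 0.470 with Sncg, led by Syt1, the calcium sensor of release, at 0.912, and of 0.254 with Sncaip.

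GABAergic and glial genes ran opposite to Sncg. The 5 GABAergic genes had a median r of −0.584 with Sncg and −0.426 with Sncaip but 0.083 with Sncb. All 6 astrocyte genes and all 6 microglia genes had a negative r with Sncg, with medians of −0.623 and −0.649, and the 8 oligodendrocyte genes had a median of −0.355. All 6 endothelial genes were also negative with Sncg, with a median of −0.330. Other lists ran with it: the median r with Sncg was 0.366 for the 4 glutamatergic genes, of which 3 were positive, 0.607 for 2 cholinergic genes and 0.309 for 2 serotonergic genes. The 4 choroid plexus genes were divided, 2 being positive, with r from −0.210 to 0.812 and a median of 0.064. With Sncb the most negative list was the endothelial one, 6 of 6 negative with a median of −0.472. The part of these cells' share of the tissue in the levels of the members was not tested.

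**Figure D5:**
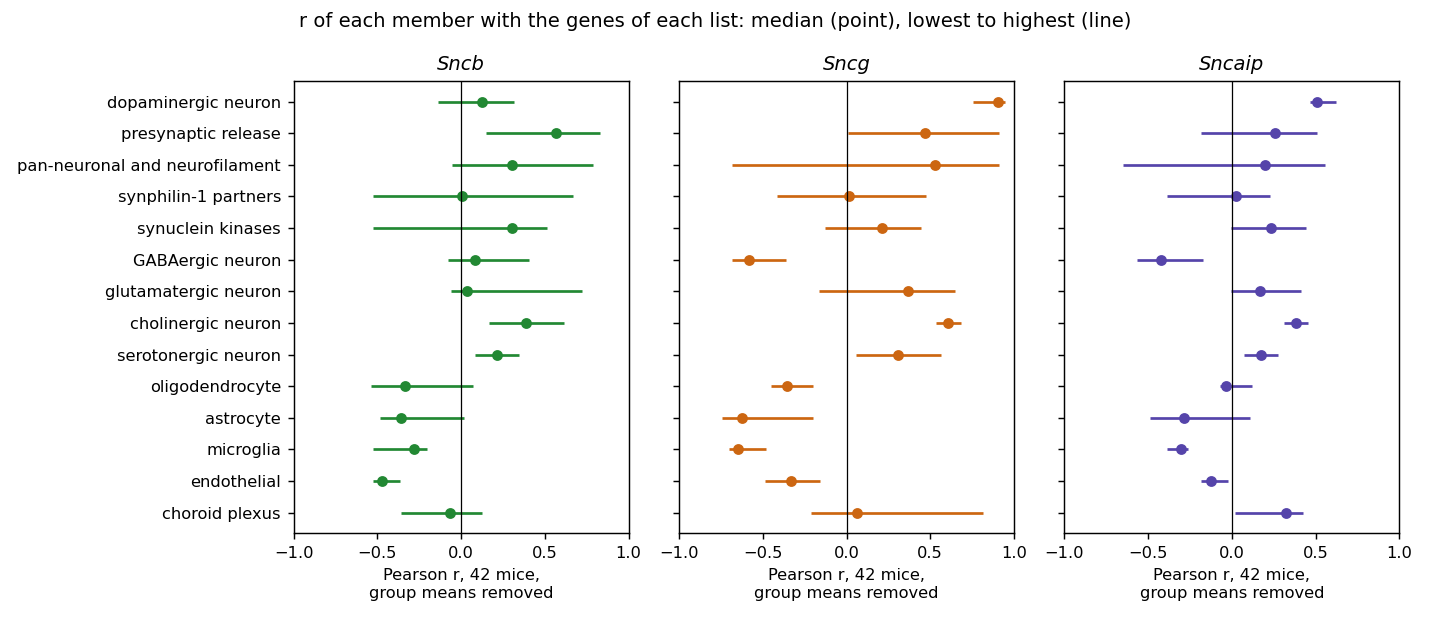
Pearson r (x axis) of Sncb, Sncg and Sncaip (panels) with the genes of 14 lists (y axis) over 42 mice with group means removed; points are medians and lines run from the lowest to the highest gene. The DA neuron list lies near 0.9 for Sncg, near 0.5 for Sncaip and near 0.1 for Sncb, and the glial lists lie to the left of 0 for Sncg.

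Genes whose products act on these proteins were set in the same comparisons. Of 8 genes for subunits of kinases known to phosphorylate α-synuclein, Plk2, Plk3, Grk5, Grk6 and casein kinase genes among them, none was called in any comparison. That count says little beside the 0% to 7.23% of all genes called. Median log2 fold changes were between −0.03 and 0.04, against 0.00 or −0.01 over all genes. Plk2 was lower by 0.16 for PFF at 21% O2 (adjusted p = 0.0298, quasi-likelihood test), short of the fold required. Of 10 partners of synphilin-1, 1 was called lower for PFF at 21% O2, and 1 was called lower and 1 higher for 11% O2 in monomer mice, where 3.7% and 7.23% of all genes were called; 1 was called for the interaction, against 2.14%. Siah2, a ubiquitin ligase of synphilin-1, ran from 14.8 to 18.02 TPM in monomer mice at 21% O2, from 11.2 to 17.2 in PFF mice at 21% O2, from 10.6 to 15.8 in monomer mice at 11% O2 and from 10.6 to 17.2 in PFF mice at 11% O2. It was highest in the monomer mice at 21% O2, though the groups overlapped. In log2 units it fell by 0.32 (SE 0.076, adjusted p = 0.00749) after PFF at 21% O2 and by 0.34 (SE 0.083, adjusted p = 0.00387) at 11% O2 in monomer mice, and the interaction was positive at 0.49 (SE 0.114, adjusted p = 0.0113). All 3 comparisons use the same monomer mice at 21% O2, so these values are not independent. In batch 1 alone all 3 calls were lost, at −0.22, −0.35 and 0.26 (adjusted p 0.423, 0.122 and 0.596). The call for PFF at 21% O2 was also lost in batch 2 alone, the other batch that allows it, at −0.30 (adjusted p 0.122), and that for 11% O2 in monomer mice on uncorrected counts without a batch term, where it was −0.247, short of the fold required. The direction was kept in each of these. Siah1b was higher by 0.42 (SE 0.074, adjusted p = 0.000121) with 11% O2 in monomer mice, from 7.37 ± 0.976 (n = 11) to 9.85 ± 1.12 TPM (n = 9), but it is a close copy of Siah1a and reads may be divided between them. The call of Siah1b was kept under 54 of 55 alternatives and lost in batch 1 alone, at 0.46 (adjusted p 0.0728, quasi-likelihood test). Siah1a itself, at −0.08 (SE 0.057), was not called. Over the 42 mice Siah2 had an r of −0.047 with Sncaip and −0.312 with Sncg.

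Of the other lists, none of the 12 DA neuron, 16 presynaptic, 12 pan-neuronal and neurofilament, 5 GABAergic, 4 glutamatergic, 6 astrocyte, 6 microglia or 4 choroid plexus genes was called in any comparison, nor any of the 5 cholinergic and 2 serotonergic genes that could be tested. The 16 presynaptic genes, with which Sncb went across mice, were all below 0 for PFF at 21% O2, with a median of −0.09, where Sncb stood at −0.01, and all above 0 for the interaction, with a median of 0.10, where Sncb stood at 0.03. Libraries are shared by all these genes, and both comparisons use the mice at 21% O2, with opposite sign. Over all genes, 50.4% were above 0 for PFF at 21% O2 and 49.7% for the interaction. Markers of other cells moved with this the other way, all 8 oligodendrocyte and all 6 microglia genes being above 0 for PFF at 21% O2, with medians of 0.05 and 0.13, and all below 0 for the interaction, with medians of −0.18 and −0.12. Their part in the presynaptic values was not tested. Called genes lay in vessels and myelin. All 6 endothelial genes rose with 11% O2 in monomer mice, led by Cldn5, the tight-junction claudin, at 0.74 (adjusted p = 6.65e-06), and Cldn5 at 0.47 and Flt1, a VEGF receptor, at 0.53 also rose in PFF mice. With batch as a covariate on uncorrected counts, and with all 48 mice, 3 of the 6 calls in monomer mice were lost, those of Cdh5, Tek and Slco1a4 (adjusted p 0.0574, 0.109 and 0.164 with the covariate), and in batch 1 alone only that of Cldn5 was kept, Slco1a4 falling from 0.48 to 0.037. Those of Tek and Slco1a4 were also lost without any 1 of 6 and 3 mice. Both calls in PFF mice were lost in each batch alone and on uncorrected counts without a batch term. Mog, a myelin protein, rose by 0.32 and Cnp, a myelin enzyme, by 0.26 with 11% O2 in monomer mice, and the interaction for Mog was −0.33 (adjusted p = 0.0268). That interaction was not called with batch as a covariate (adjusted p 0.0553), with all 48 mice (0.0737), in batch 1 (0.521) or without either replicate 2 or replicate 7 of monomer mice at 11% O2. In monomer mice both myelin calls were lost in batch 1, and that of Cnp with all 48 mice and without any 1 of 5 mice. Slco1a4, a transporter of brain endothelium, rose with PFF at 21% O2 by 0.45 (adjusted p = 0.0416), a call lost without any 1 of 12 of the 42 mice, with batch as a covariate, with all 48 mice, in batch 1, by limma and with no filter on low counts.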

How the data were processed

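Poly(A) RNA of the SN was sequenced from 48 mice. The authors removed reads from ribosomal DNA and aligned the rest to mm10 with STAR 2.7.5a. They counted reads per gene of GENCODE vM24 with featureCounts 2.0.1, keeping the primary alignment of multimapping reads and naming no strand option, and deposited the counts, without normalization, and TPM computed from them. Picard 2.21.9 and GATK 4.1.5.0-9 are listed in the submitters' processing notes, as is Scanpy 1.8.1. The authors left out 6 mice after a principal component analysis, corrected the other 42 for harvest date with ComBat-seq, keeping O2 and injection as covariates, and deposited the corrected counts and TPM of 19601 protein-coding genes. Correction can alter the relation between genes, so correlations are also given on uncorrected TPM. The hypoxia in these mice is described differently in the sources, as beginning after injection or midway, and its start is not settled here. Columns of the authors' own tests were not used.

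The corrected counts of 42 mice were fitted with edgeR 4.0.16 in R 4.3.3 (TMM, filterByExpr by group, quasi-likelihood test, 4 groups in 1 fit, no batch term), with Benjamini–Hochberg adjustment over 14839 genes; SE was taken as the size of the log2 fold change over the root of F. Precision is set by the spread between mice and by the counts per gene. Correlations used log2(TPM + 1) and two-sided permutation tests of 100000 resamples, within group and batch for pooled values, exact for 9 mice, adjusted over 18. Both were tested on simulated data. Alternatives included DESeq2 1.42.0, limma 3.58.1 on log2(TPM + 1) and log2(TPM + 0.1), a minimum mean of 1 TPM, other filters, batches alone, all 48 mice and leaving out each mouse. The genes named are the members, Th, up to 5 most alike genes of each member among those with a mean of at least 1 TPM, every called DA neuron, synphilin-1 partner or kinase gene and up to 4 called genes of each other list; list genes given by their r alone were chosen after their values were seen. The members and the 14 lists were chosen with earlier results of these data known. One further result is not reported here.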

Additional observations from a re-analysis of the deposited data

Results flagged for a closer look

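Among the 6 mice that the authors left out, 2 had a member above every one of the 11 monomer mice at 21% O2 in the uncorrected TPM, which is what singled them out. Sncb stood at 660 TPM in PFF replicate 2 at 11% O2, against at most 605 TPM in those monomer mice and 509 to 622 TPM in the 10 mice of its own group that were kept. Sncaip stood at 12.2 TPM in PFF replicate 5 at 11% O2, against at most 11.6 TPM in the monomer mice and 6.57 to 9.999 TPM in its own group. Of the 12 libraries of PFF mice at 11% O2, the shallowest held 3134594 counts on genes, against at least 12902996 in the 10 kept. That library is therefore from replicate 2 or replicate 5, which limits what its value can show. No value of a member in the 2 groups of 9 and 10 mice lay far enough from the others to be an outlier by Dixon's test. The groups of 11 and 12 were not put to that test.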

How the results depend on the processing

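No member was called under any alternative, over 849 values of the 3 members in the 5 comparisons with a lowest adjusted p of 0.21, and Sncg kept a positive r with Th past the threshold under every alternative run. The share of genes called moved more, here in percent of the genes in each fit. For PFF at 21% O2 it was 3.7% in all, 0.0609% in batch 1 alone and 7.59% by adjusted p alone. At 11% O2 DESeq2 called 1 gene, 0.00513%, against 0 by edgeR, and edgeR called 1 gene without monomer replicate 11, the range leaving out each mouse being 0% to 0.00672%. For 11% O2 in monomer mice it was 7.23%, 4.44% with batch as a covariate on uncorrected counts, 2.01% in batch 1 and 13.2% by adjusted p alone. In PFF mice it was 0.58%, 0.385% on uncorrected counts without a batch term, and 0.0406%, 0.0472% and 0.0136% in batches 1, 2 and 3. For the interaction it was 2.14%, 1.39% with batch as a covariate, 1.03% with all 48 mice and 0.0745% in batch 1. A single batch holds fewer mice, and the cause of these shifts was not tested.

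Signs turned where a log2 fold change was near 0, the cause not being tested. For PFF at 21% O2, Sncb was 0.0047 with batch as a covariate, 0.023 with all 48 mice and 0.029 in batch 2, and Sncg −0.13 in batch 1. For PFF at 11% O2, Sncb was −0.082 in batch 1 and −0.0061 with the replicate block. There Sncg was 0.035 with batch as a covariate, 0.011 without a batch term, 0.18 with all 48 mice, 0.14 in batch 1, 0.033 with the block, 0.014 with Th as a covariate, and 0.029 by limma with either pseudocount or a minimum TPM, and Sncaip was 0.0033 with all 48 mice. For 11% O2 in monomer mice, Sncb was −0.0013 without a batch term, Sncg −0.047 with all 48 mice and −0.10 in batch 1, and Sncaip −0.024 in batch 1. In PFF mice Sncg was 0.00016 by DESeq2, 0.00034 with its size factors, 0.023 with batch as a covariate, 0.012 without a batch term, 0.17 in batch 1, 0.058 in batch 3, 0.0011 with only the groups compared, 0.037 with the block, and 0.0040 by limma or 0.0041 with a pseudocount of 0.1. For the interaction Sncg was 0.035 with all 48 mice and 0.27 in batch 1, and Sncaip −2.5e-05 without a batch term. Leaving out each mouse in turn gave −0.037 to 0.019 for Sncb and PFF at 21% O2, −0.018 to 0.035 for Sncb and −0.11 to 0.10 for Sncg at 11% O2, −0.0034 to 0.072 for Sncaip and 11% O2 in monomer mice, −0.069 to 0.061 for Sncg in PFF mice, and −0.0096 to 0.049 for Sncb and −0.015 to 0.061 for Sncaip in the interaction.

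Leaving out each mouse, r with Th ran from 0.860 to 0.920 for Sncg, 0.462 to 0.561 for Sncaip and 0.062 to 0.195 for Sncb. That of Sncaip missed the threshold in batch 1 (0.576, adjusted p 0.11) and batch 3 (0.595, adjusted p 0.089), and that of Sncg with Sncaip in batch 3 (0.416, adjusted p 0.33). Between Sncb and Sncaip r was 0.056 in batch 1 and −0.164 to 0.014 leaving out each mouse. On all 48 mice Sncb had r of 0.392 in monomer and −0.208 in PFF mice at 11% O2 with Th. The labels number mice alike in each group. The paper describes a randomized matched-pairs design, with mice paired by age, weight, delivery date and, where possible, cage. The labels do not say which mice formed a pair. Of 54 pairs of mice with the same number in different groups, 21 had a correlation of deviations above 0.1. The median was 0.012, against −0.0056 in 605 pairs with other numbers. Only 4 of 42 mice correlated best with their own number. The numbers were therefore not taken to pair mice, and pairs set by the design are not in the main fits. With the number as a replicate block the shares of genes called were 3.11%, 0%, 7.57%, 0.485% and 1.97% in the order above, and no member was called. Counts of 113 to 239 per mouse on Sncaip limit what could be seen there.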
